A study of Drosophila montana and Drosophila virilis with 24 samples.

Results

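Cold acclimation of Drosophila montana was compared directly with recovery from chill coma, to find which expression changes belong to long, mild cold and not to rewarming after severe cold. The comparison rests on 6 of the 24 arrays of the series, chosen by their titles: 3 arrays of acclimated flies and 3 of flies that had recovered for 1 h. All were whole bodies of mature females 20 days old, and each array held 1 pool of 10 flies. Acclimation began after 14 days under control conditions and lasted 6 days at 5°C. Recovering flies had been held at -6°C for 16 h, which induces chill coma, a reversible loss of movement in cold insects, and were then left to recover for 1 h. The light and dark phases of the day lasted 22 h and 2 h for all flies, and samples were taken 5 to 6 h from lights on. The 3 control arrays, of flies kept at 19°C, show the side on which a group moved. The remaining 6 D. montana arrays, of flies hardened at 0°C for 1 h and of flies 15 min into recovery, entered the model for its estimate of the spread. The 2 groups of interest differ at once in temperature, in length of cold and in the hour of recovery, and these cannot be told apart.

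Levels are log2 signals relative to the array's 75th percentile, so 0 is the level below which 75% of the probes of an array lie. They are compared between arrays and not between genes, except where genes are grouped by level or marker levels are summed. In whole bodies, fewer cells of a type and less RNA per cell cannot be told apart. The 75th percentile itself was 658.0 to 750.8 intensity units on the acclimation arrays, 412.9 to 576.4 on the 1-h recovery arrays and 698.5 to 839.2 on the controls. No spot was saturated, and 76.4% to 80.5% of spots were well above background after acclimation against 76.9% to 77.8% after recovery. Whether these signal levels bear on the results was not tested. Arrays of 1 group correlated at 0.992 or more over the 213 genes, and arrays of different groups at 0.989 or less. Acclimation and recovery replicates 1, 2 and 3 lay on slides 1, 2 and 3, so each slide gives a difference of its own.

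Insects survive cold by several routes that the array's genes touch. Membranes keep their fluidity as desaturases place double bonds in fatty acids. Sugars and trehalose serve as fuel and as protectants. Heat shock proteins, chaperones that keep other proteins folded, are made in many insects during rewarming from a cold stress, when damaged proteins are dealt with. The circadian clock, a loop in which period and timeless repress their own activators and light acts through cryptochrome, times the seasonal responses of northern flies such as D. montana.

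Of 213 genes, 47 (22.1%) differed between acclimation and 1-h recovery at an adjusted p under 0.05 (limma, Benjamini-Hochberg). Acclimated flies had higher levels of 18 genes (8.45%) and lower levels of 29 (13.6%). The arrays of the 2 groups did not overlap for 44 of the 47, and 46 had 1 direction on all 3 slides. The 47 were chosen by a test on these same arrays, so these counts are no independent support. The shares among all 213 genes were not counted. Over the 18 higher genes the median difference was 0.51, 0.42 and 0.91 log2 units on slides 1, 2 and 3. Over the 29 lower genes it was -0.74, -0.70 and -0.59. Measured means differed by over 1 log2 unit for 12 of the 47, 6 in each direction, among them na, for which the recovery arrays were not well above background and give only a bound. Among the 213 genes the median difference was -0.02.

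The split into higher and lower genes depended on the scaling. Of the called genes 38.3% were higher in acclimation, against 76.0% with the labelling kit's spike-in probes as reference, 73.3% with median scaling, 64.6% with quantile normalization, 64.0% in the authors' deposited table of values and 20.0% with both probe orientations averaged. These settings moved the median of all genes by 0.22, 0.20, 0.11, 0.12 and -0.15 log2 units in the same order. All 47 genes kept their direction in the first 4 of them, and 46 did with both orientations averaged. With spike-in scaling 25 genes passed, 19 higher and 6 lower, and 22 of them were among the 47. Of the 12 differences over 1 unit, all passed with spike-in, median and quantile scaling and in the deposited values. With both orientations averaged 10 passed (not Eip71CD and knk), and after normexp background correction 8 passed (not ey, na, vri and knk), with na and knk turned in direction.

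Set beside the controls, the acclimated flies had moved further for most of the 47 genes. Of the 18 genes higher in acclimation, the mean of the acclimated arrays was farther from the control mean than that of the recovering arrays for 15. Among the 29 lower genes this held for 24. Both distances are taken from the same 3 control arrays. The share among all 213 genes was not counted, so whether the 47 stand out in this was not tested. Against the controls 57 of 213 genes (26.8%) passed after acclimation and 6 (2.82%) after 1 h of recovery. Of the 47 genes, 32 passed in the former comparison and 2 in the latter, and 14 passed in neither.

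**Figure D1:**
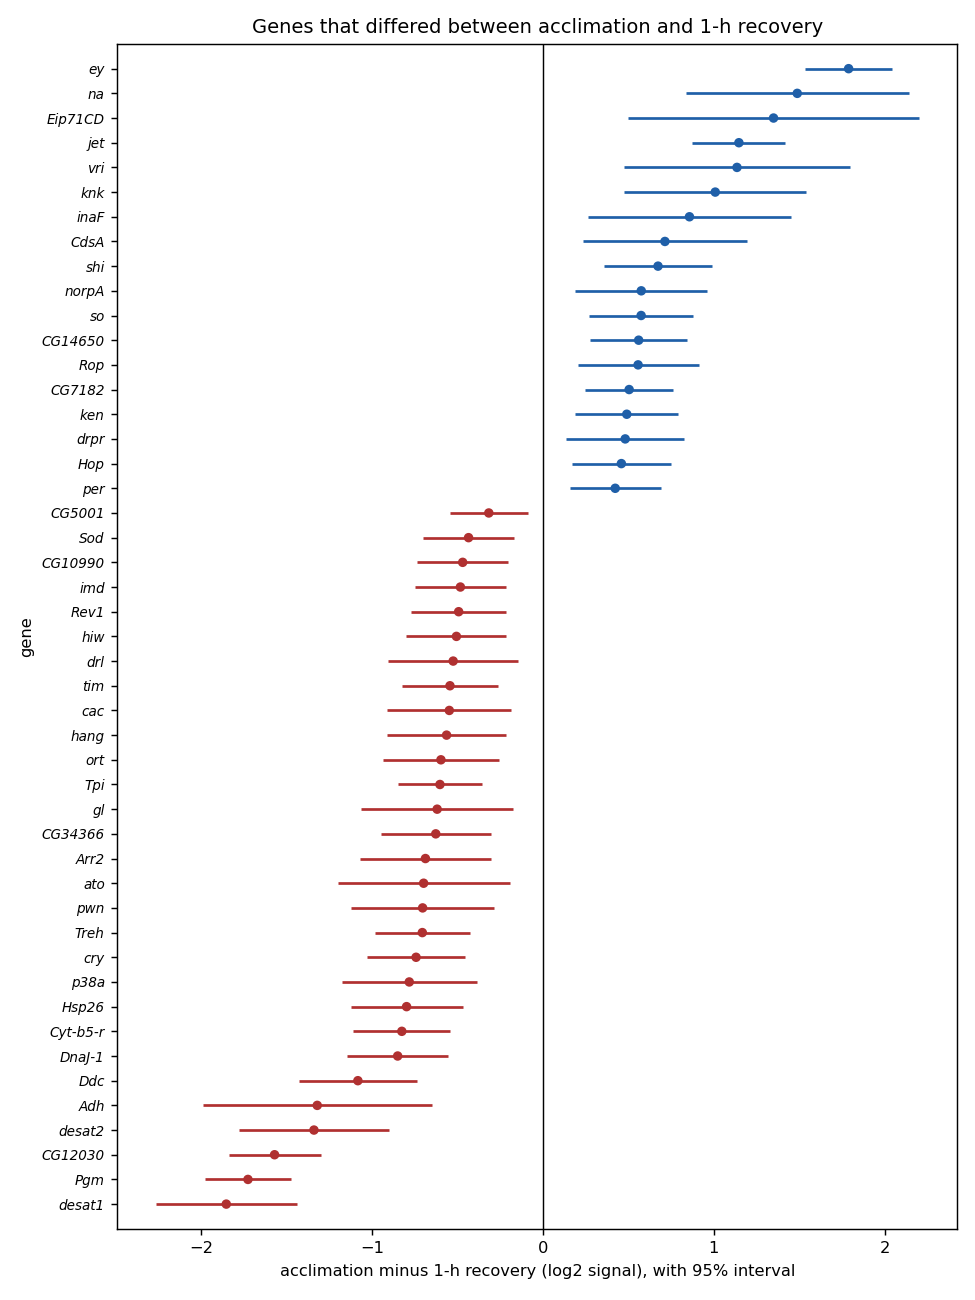
Each point is the log2 difference between the mean of 3 acclimation arrays and the mean of 3 arrays of 1-h recovery, with its 95% interval, for the 47 genes that passed. The 18 genes higher in acclimation are blue and the 29 lower genes red, and ey, at 1.79, and desat1, at -1.85, lie at the ends.

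The lipid genes that differed were all lower in acclimation. Of 8 genes for fatty acid desaturases and lipid metabolism, 0 were higher, 3 were lower (13.6% of all genes were) and 5 did not pass. The list's median difference was -0.44, against -0.02 for all genes, and it stayed below 0 under every scaling tried (-0.43 to -0.22, where all genes stood between -0.18 and 0.19). The gene desat1 encodes the delta-9 desaturase that makes monounsaturated fatty acids. Its levels were 5.35, 5.44 and 5.26 in acclimation replicates 1 to 3, 7.14, 7.16 and 7.30 in recovery replicates 1 to 3 and 6.85, 7.18 and 7.60 in the controls. The acclimated pools thus lay well below both other groups, while the recovering pools lay within the control range. The difference was -1.85 ± 0.20 (SE, n = 3 arrays per group, 3.61-fold, adjusted p = 3.00e-06), and it was -1.79, -1.73 and -2.04 on the 3 slides. All 4 desat1 probes gave it, from -1.92 to -1.79.

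The related desaturase gene desat2 showed the same order. Acclimated pools stood at 3.56, 3.98 and 3.74, recovering pools at 4.94, 4.98 and 5.38 and controls at 4.92, 5.35 and 5.59. The difference was -1.34 ± 0.21 (2.53-fold, adjusted p = 0.000233), with no overlap between acclimation and either other group. Cyt-b5-r encodes a protein related to cytochrome b5, the electron donor of desaturases. It was at 4.34, 4.59 and 4.46 after acclimation and at 5.27, 5.50 and 5.10 in recovery (-0.83 ± 0.13, adjusted p = 0.000352), and its mean in recovery differed from that of the controls by -0.00. With spike-in scaling the Cyt-b5-r difference was -0.61 and no longer passed, whereas those of desat1 (-1.64) and desat2 (-1.12) did. The 5 members that did not pass, CG9743, CG9747, CG15531, CG17928 and CG8630, had differences from -0.49 to -0.14. For CG9743 and CG8630 that mean rests on 1 probe of 4, at -1.65 and -1.08, and the other 3 probes of each lay above 0 (up to 0.20 and 0.18).

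Genes of sugar and alcohol metabolism were lower in acclimation in the same way. Of 6, 0 were higher, 4 were lower, beside 13.6% of all genes, and 2 did not pass, with a median difference of -0.65 that ran from -0.77 to -0.44 under the scalings tried. With spike-in scaling 2 of the 6 passed, and with median scaling 3. Phosphoglucomutase (Pgm), which links glycogen and glucose breakdown, stood at 3.12, 3.17 and 3.15 in acclimated pools, at 4.83, 4.93 and 4.85 in recovering pools and at 4.84, 4.79 and 4.88 in controls. Recovering and control arrays were interleaved, and acclimated arrays lay far below both. The difference was -1.73 ± 0.12 (3.31-fold, adjusted p = 1.47e-08) and near equal on the slides (-1.71, -1.76 and -1.70). The mean hides unequal probes: 3 of the 4 Pgm probes gave -2.41, -2.17 and -2.19, and the remaining probe gave -0.13 (adjusted p = 0.60).

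Alcohol dehydrogenase (Adh), which detoxifies ethanol in the food of fruit flies, varied more among acclimated pools. These were at 5.31, 3.65 and 4.07, against 5.56, 5.79 and 5.65 in recovery and 5.97, 5.95 and 6.27 in controls. The groups did not overlap, but the difference was -0.25 on slide 1 and -2.14 and -1.58 on the others (mean -1.32 ± 0.32, 2.50-fold, adjusted p = 0.00829). In a model of the 6 arrays alone it did not pass (adjusted p = 0.061). Trehalase (Treh), which splits the blood sugar of insects, was at 0.36, 0.51 and 0.51 after acclimation and at 1.17, 1.33 and 1.00 in recovery, with controls from 1.32 to 1.45. Its difference of -0.71 ± 0.13 (adjusted p = 0.00111) held on each slide, and with spike-in scaling it was -0.49 and did not pass (adjusted p = 0.16). The glycolytic enzyme gene Tpi differed by -0.60 ± 0.12 (adjusted p = 0.00160), and did not pass with spike-in (-0.39), median (-0.40) or quantile scaling (-0.20) or in the deposited values (-0.23). Gapdh1 (-0.29) and Gapdh2 (-0.27), also glycolytic, lay below all recovery arrays on all 3 acclimation arrays without passing the test (adjusted p = 0.13 and 0.16). Both passed as lower with both orientations averaged (-0.40 each, adjusted p = 0.024 and 0.027) and with array weights, and both lay above 0 with quantile scaling and in the deposited values.

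CG12030 belongs to no list and differed nearly as much. Acclimated pools were at 2.79, 2.70 and 2.78, recovering pools at 4.31, 4.48 and 4.19 and controls at 4.24, 4.31 and 4.28. The difference was -1.57 ± 0.13 (2.97-fold, adjusted p = 9.54e-08), its 3 probes gave -1.60 to -1.53, and recovering and control arrays overlapped.

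**Figure D2:**
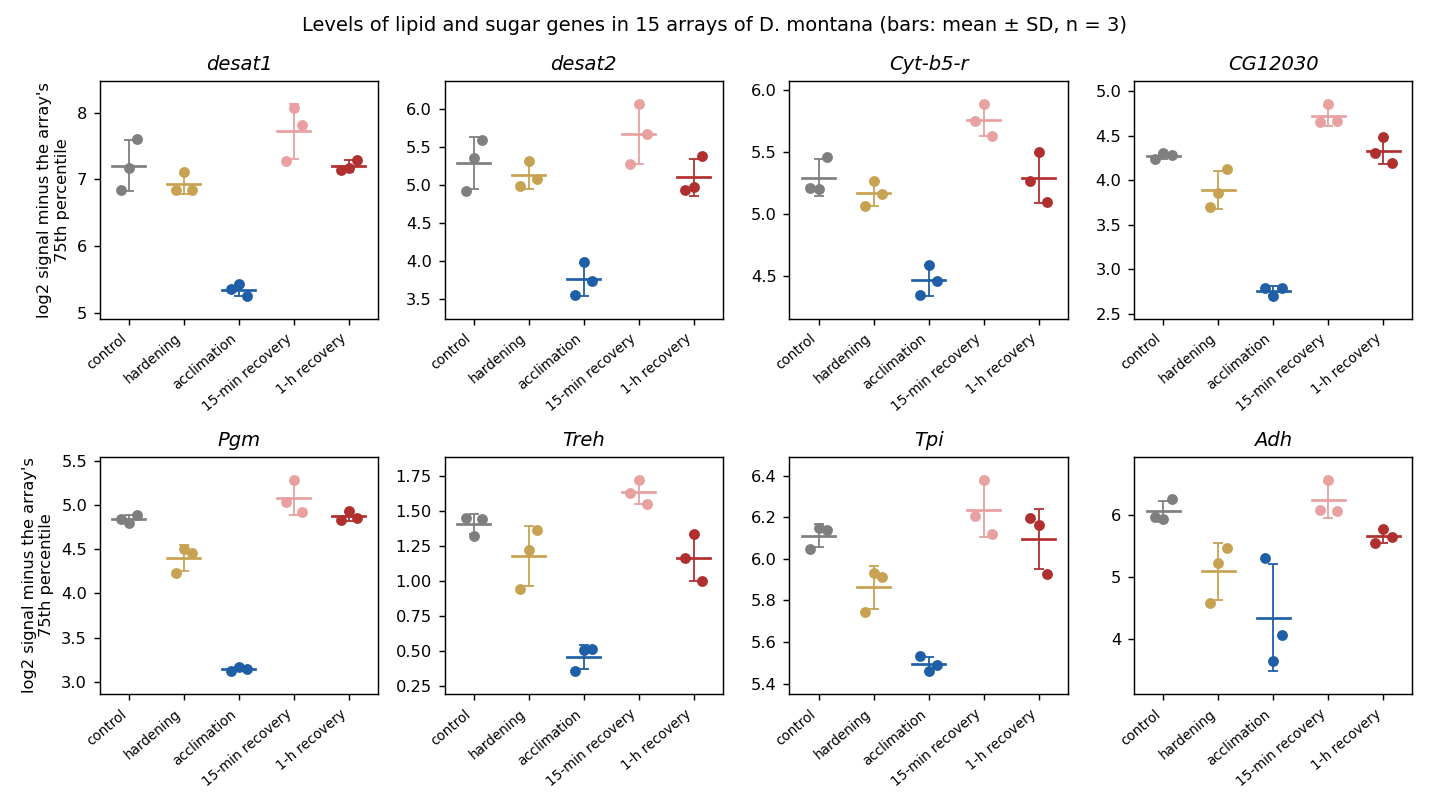
Points are single arrays of D. montana, with the mean as a horizontal line and the SD as a bar (n = 3 per group), for 4 lipid and other genes above and 4 sugar and alcohol genes below; the vertical axis is the log2 signal minus the array's 75th percentile. For desat1, desat2, Cyt-b5-r, CG12030, Pgm, Treh and Tpi the acclimation arrays lie below all arrays of the other groups, and for Adh the acclimation arrays range from 3.65 to 5.31.

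Of the heat shock genes, hsr-omega, Hsp68 and stv were raised over the controls in both groups, DnaJ-1 was raised over them in recovery and not in acclimation, and most of the others did not pass between the 2 groups. Of 10 genes for inducible Hsp70 relatives, partners and regulators, 2 were higher in acclimation, 1 was lower (22.1% of all genes differed) and 7 did not pass, and the median of 0.04 turned to -0.17 with both orientations averaged. The noncoding heat shock RNA gene hsr-omega was at 4.81, 4.52 and 4.71 after acclimation and at 4.60, 4.30 and 3.82 in recovery, with controls at 2.58, 2.71 and 2.54. Both groups were far above the controls, by 2.07 ± 0.18 (adjusted p = 1.63e-07) and 1.63 ± 0.18 (adjusted p = 1.83e-05), and overlapped each other. Their own difference of 0.44 ± 0.18 (95% interval 0.06 to 0.81) did not pass (adjusted p = 0.092), and it was 0.21, 0.22 and 0.88 on the slides. Acclimation was the higher group with median scaling (0.64, adjusted p = 0.037), quantile scaling (0.81, adjusted p = 0.00295) and in the deposited values (0.87, adjusted p = 0.00225), while both orientations averaged gave 0.0018.

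Hsp68, a relative of the Hsp70 chaperones that stress induces, was at 2.50, 2.62 and 2.75 after acclimation and at 3.08, 2.53 and 2.54 in recovery, against 1.38 to 1.54 in controls. The co-chaperone gene stv (starvin), whose product binds Hsp70, was at 0.08, -0.08 and -0.05 after acclimation and at 0.41, 0.00 and -0.03 in recovery, against -1.03 to -0.83 in controls. Acclimated and recovering pools overlapped for both genes and lay above every control array. The differences were -0.09 (95% interval -0.41 to 0.22) for Hsp68 and -0.14 (-0.42 to 0.14) for stv, neither of which passed (adjusted p = 0.67 and 0.45), and both turned positive with spike-in and median scaling. With both orientations averaged stv passed as lower in acclimation (-0.40, adjusted p = 0.015). Hsp83, the cytosolic Hsp90, differed by 0.04 (-0.39 to 0.47) and did not pass, but with both orientations averaged it turned and passed as lower in acclimation (-0.30, adjusted p = 0.040).

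DnaJ-1, an Hsp40 that presents substrates to Hsp70, was raised in recovery and stood at the control level in acclimation. Recovering pools were at 3.90, 3.45 and 3.35, acclimated pools at 2.82, 2.64 and 2.69 and controls at 2.72, 2.83 and 2.61. The difference between the 2 groups was -0.85 ± 0.14 (1.80-fold, adjusted p = 0.000389), and it was -1.08, -0.81 and -0.66 on the slides. Against controls the recovery value was 0.85 ± 0.14 (adjusted p = 0.000596) and the acclimation value -0.00 ± 0.14. With spike-in scaling the direct difference was -0.63 (adjusted p = 0.070). At 15 min of recovery DnaJ-1 stood at -0.39 relative to controls, without passing.

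Hsp26, a small heat shock protein gene measured by 1 probe, was likewise lower in acclimation. It was at 8.27, 8.36 and 8.53 in acclimated pools, at 9.14, 9.04 and 9.37 in recovering pools and at 8.58, 8.81 and 8.71 in controls. The controls lay between the groups with no overlap, and the difference was -0.80 ± 0.15 (adjusted p = 0.00160), or -0.58 (adjusted p = 0.11) with spike-in scaling. The other 4 small heat shock genes did not pass: Hsp20, Hsp23, Hsp67Bc and l(2)efl, from -0.52 to 0.30. Of the 2 Hsp67Bc probes, 1 was higher in acclimation (1.32 ± 0.15) and 1 lower (-0.72 ± 0.22), so that the gene value of 0.30 describes neither. That value passed as higher with median (0.51) and quantile scaling (0.56), with both orientations averaged (0.53) and in the deposited values (0.55).

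Acclimation was the higher group for CG7182, an Hsp70-like gene, and for Hop, the co-chaperone that links Hsp70 and Hsp90. CG7182 was at 1.80, 1.83 and 2.07 after acclimation and at 1.56, 1.43 and 1.20 in recovery, with controls from 1.45 to 1.53 (0.51 ± 0.12, adjusted p = 0.00829). Hop differed by 0.46 ± 0.14 (adjusted p = 0.024), and all 8 probes of either gene were higher in acclimation. The Hop difference did not pass without acclimation replicate 1 or 3 or without recovery replicate 3, the array with the lowest values for both genes, nor with both orientations averaged (0.26). Both genes lost the call in a model of the 6 arrays alone. None of the 6 constitutive chaperone genes (0.04 to 0.36) and none of the 3 genes of the endoplasmic reticulum list (0.16 to 0.47) passed. Their list medians were 0.22 and 0.47, and Gp93 (the Hsp90 of that compartment, adjusted p = 0.063) and the stress kinase gene PEK (adjusted p = 0.069) were higher on every acclimation array than on any recovery array. Gp93 passed as higher with median (0.68), quantile (0.60) and normexp settings (0.49), in the deposited values (0.56) and with array weights (0.37), and PEK with median scaling (0.68), both orientations averaged (0.27) and array weights (0.40). Of the 3 genes of the endoplasmic reticulum list, 2 passed as higher with median scaling, with quantile scaling and in the deposited values. Hsc70-5, a mitochondrial chaperone gene of the constitutive list, passed as higher with quantile scaling (0.37), in the deposited values (0.35) and with array weights (0.27).

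**Figure D3:**
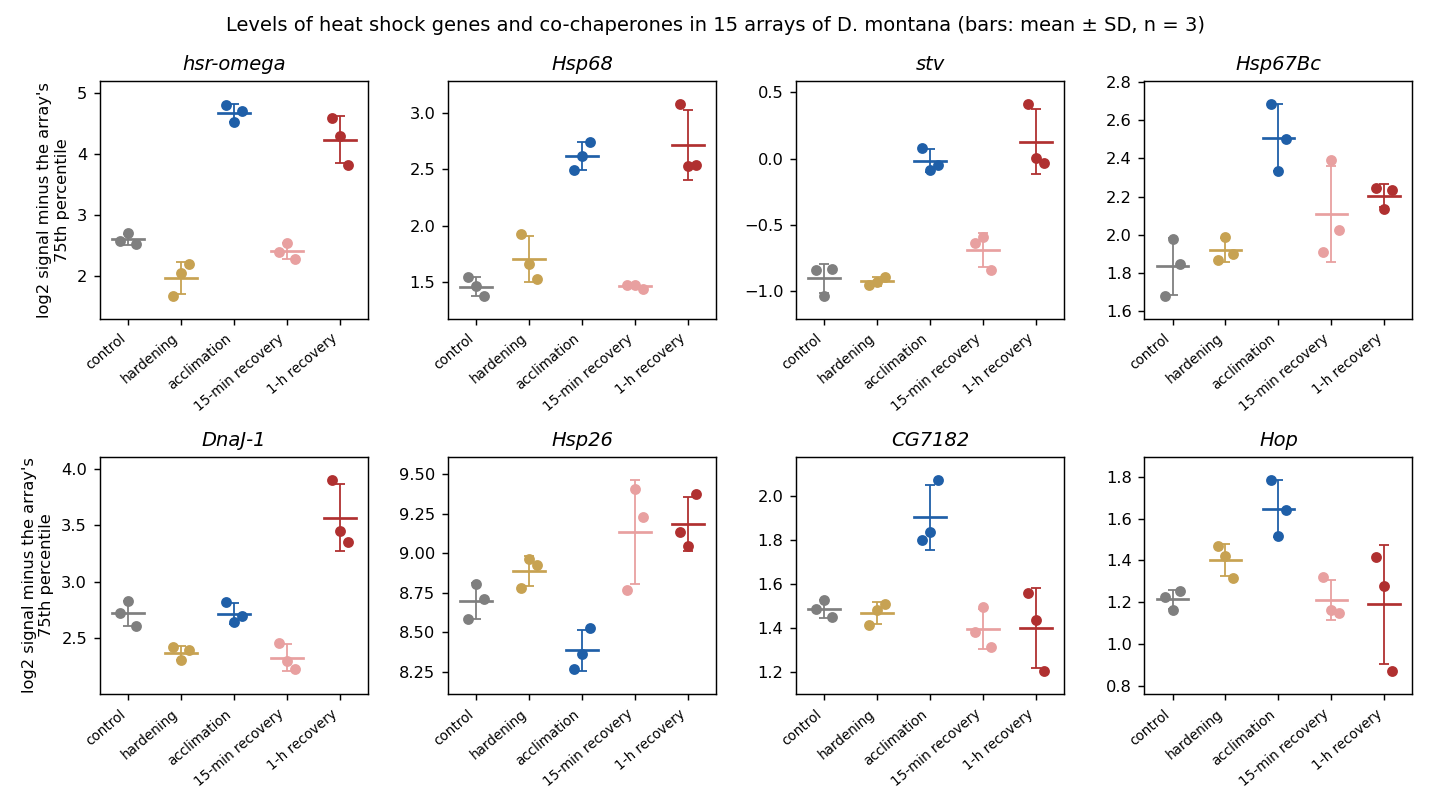
Points are single arrays of the 5 D. montana groups, lines are means and bars SD (n = 3), and the vertical axis is the log2 signal minus the array's 75th percentile. For hsr-omega, Hsp68 and stv the acclimation and 1-h recovery arrays lie together above all control arrays, whereas DnaJ-1 is raised in 1-h recovery and not in acclimation.

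Genes of oxidative repair, growth control and stress signalling followed with separate patterns. Eip71CD, a methionine sulfoxide reductase gene that repairs oxidised proteins, was low in both groups: -0.15, 1.35 and 0.39 after acclimation and -0.99, -0.93 and -0.54 in recovery, with controls at 2.24, 2.67 and 2.07. Neither group overlapped the controls, and both changes from control passed (-1.80 ± 0.40 and -3.15 ± 0.40, adjusted p = 0.00331 and 3.14e-05). Acclimation was the higher of the 2 by 1.35 ± 0.40 (adjusted p = 0.024), with no overlap. That call was lost with both orientations averaged (1.10, adjusted p = 0.052), without acclimation replicate 2 and without recovery replicate 1 or 2. Thor, the translational repressor 4E-BP that insulin signalling holds in check, was at 3.99, 4.29 and 4.36 after acclimation, at 4.65, 4.56 and 4.53 in recovery and at 3.33, 3.51 and 3.29 in controls. Both groups lay above the controls, by 0.84 ± 0.14 and 1.21 ± 0.14 (adjusted p = 0.000322 and 2.26e-05). They did not overlap each other, and their difference of -0.37 ± 0.14 did not pass (adjusted p = 0.075), except with both orientations averaged (-0.47, adjusted p = 0.027).

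The stress kinase gene p38a and the immune adaptor gene imd were the 2 lower genes among 5 stress kinase and immune genes, of which 0 were higher (median -0.10, but 0.12 with spike-in and 0.11 with median scaling). Acclimated pools were at -0.15, 0.59 and 0.44 for p38a, and recovering pools at 0.94, 1.22 and 1.07, beside controls from 1.06 to 1.20. The p38a difference of -0.78 ± 0.19 (adjusted p = 0.00829) rests on 1 probe. For imd it was -0.48 ± 0.13 (adjusted p = 0.013) with 4 near-equal probes. Both lost the call with spike-in scaling, and imd also with median scaling (-0.28), from the 6 arrays alone and without acclimation replicate 2. Among the cold response candidates outside these groups, Fst (Frost) differed by 0.47 ± 0.27 and Dca, a regucalcin-like gene, by -0.51 ± 0.22, and neither passed (adjusted p = 0.22 and 0.11), although Dca did with both orientations averaged (-0.61, adjusted p = 0.029). The Fst probes disagreed, with 3 from 0.70 to 0.96 and 1 at -0.63.

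Clock genes differed in both directions. Of 7 genes of the core loop, 2 were higher in acclimation, 1 was lower and 4 did not pass (median 0.25), beside 8.45% higher and 13.6% lower of all genes. Of 12 genes for light input, kinases and output, 3 were higher, 1 was lower and 8 did not pass (median 0.17, and -0.03 with both orientations averaged). The jetlag gene jet, whose F-box protein takes part in the light-dependent loss of timeless protein, was at 0.14, -0.07 and -0.02 after acclimation. Recovering pools were at -1.05, -1.09 and -1.25 and controls at -1.08, -1.09 and -1.10. Recovery and control coincided, and acclimation stood apart by 1.15 ± 0.13 (2.22-fold, adjusted p = 5.28e-06), with 1.19, 1.02 and 1.23 on the slides.

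The blue-light receptor gene cry, whose product binds timeless in light, moved the other way. It was at -0.92, -0.76 and -0.74 after acclimation, at -0.27, 0.06 and 0.03 in recovery and at 0.07, 0.06 and -0.05 in controls. The difference was -0.74 ± 0.14 (adjusted p = 0.00108), and with spike-in scaling -0.53 (adjusted p = 0.13). The repressor gene tim was at -5.42, -5.19 and -5.28 after acclimation and at -4.81, -4.69 and -4.76 in recovery (-0.54 ± 0.13, adjusted p = 0.00834), and all 14 probes were lower. Here too the controls, from -5.03 to -4.70, overlapped recovery and not acclimation, and the call did not hold with spike-in, median or quantile scaling or in the deposited values.

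The repressor gene vri was at 0.03, -0.76 and -1.48 after acclimation and at -2.04, -1.69 and -1.88 in recovery, while controls ran from -2.05 to -1.21. Acclimated pools were spread widely (SD 0.76), lay above every recovering pool and overlapped the controls. The difference of 1.14 ± 0.31 (adjusted p = 0.016) was 2.07, 0.93 and 0.40 on the slides, and it did not pass without acclimation replicate 1, without recovery replicate 1, in a model of the 6 arrays alone (adjusted p = 0.068), after normexp correction (0.72, adjusted p = 0.075) or with the median over probes (0.99, adjusted p = 0.15). Of its 3 probes, all above 0, 1 passed by itself. The gene per differed by 0.42 ± 0.13 (adjusted p = 0.024), from -3.24, -3.01 and -2.96 after acclimation to -3.59, -3.40 and -3.49 in recovery. Its 9 probes were split, with 6 from 0.12 to 1.10 and 3 from -0.49 to -0.25. The per difference fell to 0.07 after normexp correction (adjusted p = 0.68), and its call was also lost with spike-in scaling, from the 6 arrays alone, without acclimation replicate 2 or 3 and without recovery replicate 1 or 3. The activator genes Clk (-0.07) and cyc (-0.02) did not pass. All groups were taken in 1 window of the day, so a shift of phase and a change of level cannot be told apart.

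All 4 eye-specifying transcription factor genes differed, 2 in each direction, beside 22.1% of all genes. That count did not hold in other settings. With spike-in, median and quantile scaling and in the deposited values, 2 were higher and 0 lower. With normexp correction 0 were higher and 2 lower, and with both orientations averaged 1 was higher and 1 lower. The gene ey (eyeless) was at -3.65, -3.95 and -4.02 after acclimation, at -5.56, -5.71 and -5.72 in recovery and at -5.62, -5.66 and -5.45 in controls. Recovery and control arrays were interleaved, and acclimation lay above both by a wide gap. The difference was 1.79 ± 0.12 (3.46-fold, adjusted p = 1.47e-08), and it was 1.91, 1.76 and 1.70 on the slides. These are dim signals, and after normexp background correction, which adds an offset of 50 units (spots with flagged backgrounds left out), the difference was 0.20 and did not pass (adjusted p = 0.29). The partner gene so (sine oculis) was higher by 0.58 ± 0.14 (adjusted p = 0.00959), at -2.67, -2.26 and -2.33 against -3.20, -2.89 and -2.89, a call lost without acclimation replicate 2. It was also lost after normexp correction (0.19, adjusted p = 0.25), with both orientations averaged (0.13, adjusted p = 0.52) and from the 6 arrays alone (adjusted p = 0.056). The genes gl (glass, -0.62 ± 0.21, adjusted p = 0.045) and ato (atonal, -0.70 ± 0.24, adjusted p = 0.045) were lower in acclimation than in recovery. Neither passed with spike-in, median or quantile scaling or in the deposited values. For ato the acclimated pools (-4.58, -4.36 and -4.19) overlapped the controls (-4.66, -4.33 and -4.39). The recovering pools (-3.87, -3.57 and -3.59) lay above all of these. For gl the controls (-4.49, -4.26 and -4.51) overlapped recovery and lay above every acclimated pool. The call for ato was lost without any 1 of the 6 arrays, and that for gl without acclimation replicate 1 or recovery replicate 2 or 3. Of the 3 ato probes, 2 gave -1.12 and -1.16 and the remaining one 0.18.

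Of 16 opsin and phototransduction genes, 1 was higher, 2 were lower and 13 did not pass, beside 22.1% of all genes that differed (median 0.02, but -0.02 with normexp correction and -0.12 with both orientations averaged). The arrestin gene Arr2, whose product switches off rhodopsin, was at 2.14, 2.03 and 2.01 after acclimation and at 2.56, 3.08 and 2.60 in recovery, with controls from 2.67 to 3.16. That is a difference of -0.69 ± 0.18 (adjusted p = 0.014), and acclimation lay below both other groups. The histamine-gated channel gene ort differed by -0.60 ± 0.16 (adjusted p = 0.014). Both lost the call with spike-in and median scaling and without recovery replicate 2, and ort also without acclimation replicate 1. The phospholipase C gene norpA, which carries the light signal from rhodopsin, differed by 0.58 ± 0.18 (adjusted p = 0.032) and by -0.01 with both orientations averaged. Its call was also lost after normexp correction (0.31, adjusted p = 0.072), from the 6 arrays alone, without acclimation replicate 2 or 3 or recovery replicate 1 or 3. All 7 photoreceptor markers were measured, and Arr2 was the 1 that passed. Their summed linear level was 93.7 to 110.3 times the 75th percentile after acclimation and 87.8 to 121.4 times in recovery, so the ranges overlapped. Of the muscle markers 2 of 5 were measured (111.5 to 143.7 against 99.3 to 123.9, none passed) and of the nervous system markers 3 of 5 (0.170 to 0.275 against 0.222 to 0.308, cac lower). Markers of the ovary, the female fat body and the male germline were not analysed here.

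**Figure D4:**
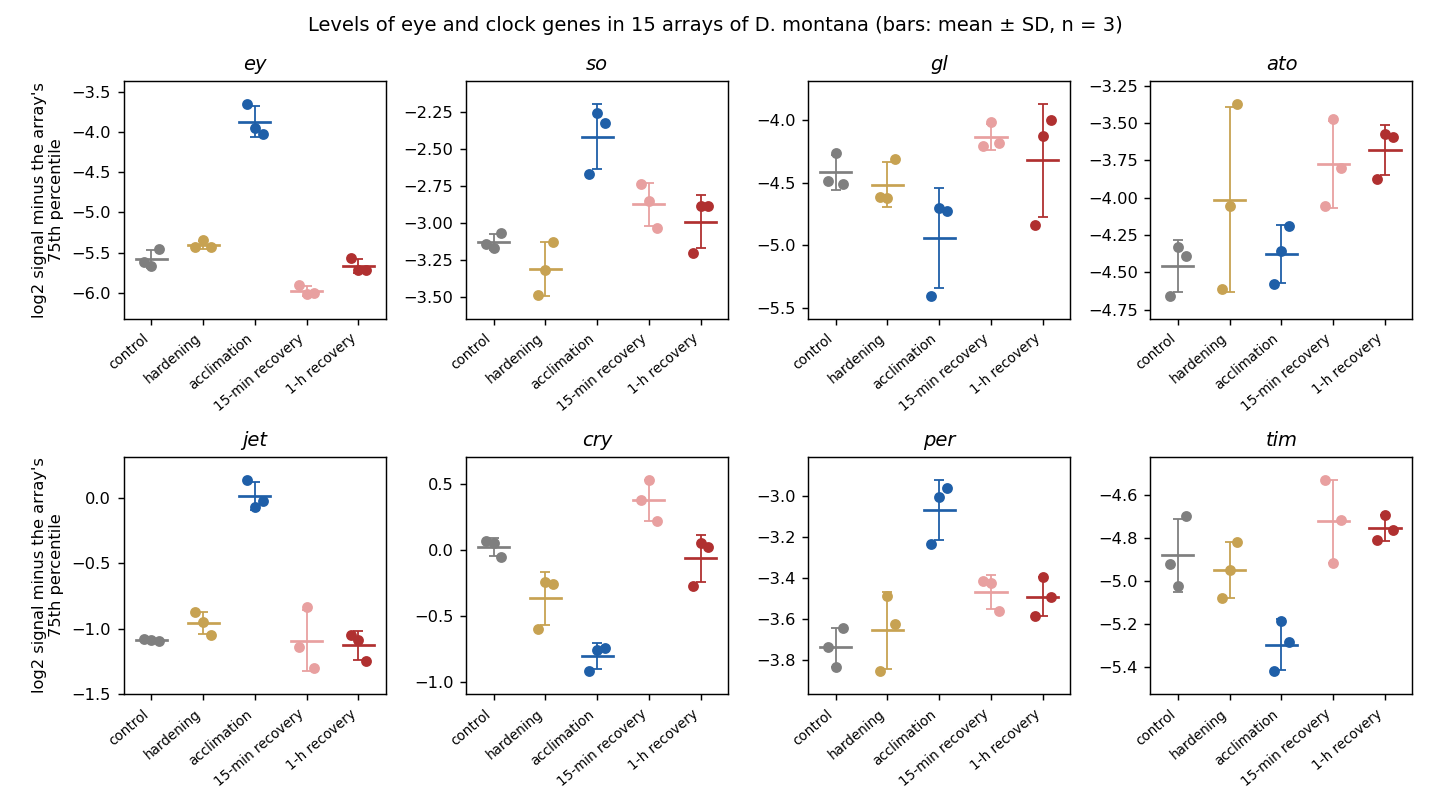
Points are single arrays of the 5 D. montana groups, lines are means and bars SD (n = 3), and the vertical axis is the log2 signal minus the array's 75th percentile. Acclimation arrays stand above all others for ey and jet and below all others for cry and tim.

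The list of 9 genes for catecholamine and beta-alanine metabolism also holds the cuticle gene knk. Of the 9, 1 was higher (knk), 1 was lower (Ddc) and 7 did not pass (median -0.16, and 0.06 with spike-in scaling). Of all genes 8.45% were higher and 13.6% lower. Dopa decarboxylase (Ddc), which makes dopamine and serotonin, was at -0.21, 0.13 and -0.27 after acclimation, at 1.08, 0.93 and 0.90 in recovery and at 0.71, 0.65 and 0.61 in controls. No 2 groups overlapped, and the controls lay between the others. The difference of -1.08 ± 0.16 (2.12-fold, adjusted p = 0.000212) was shared by all 5 probes (-1.24 to -0.78). The gene knk (Knickkopf), which organises chitin in the cuticle, was higher by 1.01 ± 0.25 (adjusted p = 0.00956), but by -0.05 after normexp correction and by 0.30 with both orientations averaged (adjusted p = 0.11). The gene black (b), which makes beta-alanine, had a difference of 1.98 ± 0.74, the widest on the array, without passing (adjusted p = 0.069), and is given here after its values were seen. Its acclimated pools were at -1.45, -0.10 and -0.34 and its recovering pools at -3.22, -2.98 and -1.61, and the 3 controls ran from -3.52 to -0.84. Replicates of 1 group thus spread widely, while the 7 probes gave near-equal differences (1.88 to 2.12).

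Of 12 genes of ion channels and excitability, 2 were higher, 1 was lower and 9 did not pass (median -0.04, 0.17 with spike-in scaling). Of all genes 8.45% were higher and 13.6% lower. Among the 9, para was well above background on 2 acclimation arrays and 0 recovery arrays, and eag on 2 and 1. Their differences therefore say little. The sodium leak channel gene na (narrow abdomen) was well above background on all 3 acclimation arrays, all 3 control arrays and 0 of the 3 recovery arrays. Acclimated pools, at -6.14, -5.29 and -4.92, overlapped the controls, at -6.26, -6.08 and -6.04. The recovery arrays were measured below all controls, at -6.89, -6.65 and -7.28. Measured means differed by 1.49 ± 0.31 (adjusted p = 0.00274), and against the dimmest signal called above background acclimation was at least 1.40-fold higher, while normexp correction gave -0.16. The dynamin gene shi, needed to recycle synaptic vesicles, was at -1.26, -1.29 and -1.18 after acclimation and at -1.82, -1.73 and -2.20 in recovery (0.67 ± 0.15, adjusted p = 0.00517), and with both orientations averaged the difference was 0.24 and did not pass. Rop, which acts in vesicle fusion, was higher by 0.56 ± 0.17 (adjusted p = 0.024), and its call was lost with both orientations averaged (0.30), from the 6 arrays alone, without acclimation replicate 1 and without recovery replicate 3. The calcium channel gene cac was lower by 0.55 on the log2 scale (-0.55 ± 0.17, adjusted p = 0.031), with -0.90, -0.70 and -0.05 on the slides. The call for cac was lost without acclimation replicate 1 or 2 or recovery replicate 1 or 2, and with spike-in, median or quantile scaling. It was also lost in the deposited values, from the 6 arrays alone and in a model of 9 arrays with the controls.

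In the other lists, with 22.1% of all genes differing, the counts were these. Of 16 courtship and sex determination genes, 1 was higher, ken (0.49 ± 0.14, adjusted p = 0.022), and 2 were lower, cac and ato. The call for ken was lost with both orientations averaged (0.26), from the 6 arrays alone, without acclimation replicate 2 or 3 or recovery replicate 3. Of 6 insulin and diapause genes, tim was the 1 lower gene and 0 were higher. None of 11 kinase, cyclic nucleotide and serotonin genes passed (-0.31 to 0.42), nor did any of 3 actin and muscle genes (-0.16 to 0.27) or of 5 ribosomal, ubiquitin and reference genes (-0.29 to 0.02). The serotonin receptor gene 5-HT7 (0.42) passed as higher with median (0.62) and quantile scaling (0.56), with the median over probes (0.63), in the deposited values (0.61) and with array weights, while normexp correction gave -0.24. The kinase gene for (foraging) passed as higher with median scaling (0.52) and array weights, and the actin gene Act42A as lower with both orientations averaged (-0.38). Outside the lists, CdsA, an enzyme gene of phosphoinositide synthesis, was higher by 0.71 ± 0.23 (adjusted p = 0.032), at 0.91, 0.84 and 0.99 against 0.63, 0.52 and -0.55. Recovery replicate 3 lay far below its group there, and the call was lost without it or without any 1 acclimation array. CG14650 was higher by 0.56 ± 0.13 (adjusted p = 0.00829), and by 0.23 with both orientations averaged, which did not pass. Its controls (0.12, 0.07 and 0.12) lay below every acclimated pool and above every recovering pool.

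Another 11 genes that passed are given after their values were seen. The genes inaF (0.86) and drpr (0.48), a receptor gene for engulfing cell debris, were higher with overlapping arrays. The inaF difference fell to 0.15 after normexp correction (adjusted p = 0.49), 0.28 with array weights (adjusted p = 0.31) and 0.41 with both orientations averaged (adjusted p = 0.097), and drpr did not pass with spike-in scaling (0.70) or both orientations averaged (0.28). Lower in acclimation than in recovery were pwn, CG34366, hang, drl, hiw, Rev1, CG10990, CG5001 and the superoxide dismutase gene Sod. Their differences ran from -0.70 to -0.32, and none of these 9 passed with spike-in or median scaling. For CG5001 the acclimated pools (0.56, 0.41 and 0.42) overlapped the controls (0.52, 0.51 and 0.58), and the recovering pools (0.89, 0.70 and 0.74) lay above both. The groups of drl had the same order. For the rest of these genes every acclimation array lay below every control array. For pwn, measured by 1 probe, 0 acclimation arrays and 2 of 3 recovery arrays were well above background. The mean of the 3 recovery arrays was 1.52-fold above the dimmest signal called above background. That mean includes the recovery array that was not well above background, so the value is no strict bound. Sod was at 5.26, 5.55 and 5.54 after acclimation and at 5.90, 5.81 and 5.94 in recovery (-0.43 ± 0.13, adjusted p = 0.022), and did not pass with spike-in, median or quantile scaling (-0.08 with the last), in the deposited values, without acclimation replicate 1 or without recovery replicate 3. Of the other 10 genes, CG34366 and Rev1 passed without each of the 6 arrays of the comparison. The call was lost for pwn without acclimation replicate 2 or recovery replicate 1, for CG10990 without replicate 2 of either group and for hiw without replicate 1 of either group. It was lost for hang without acclimation replicate 2 or 3 or recovery replicate 1, and for inaF without acclimation replicate 1 or recovery replicate 1 or 3. It was lost for drl without acclimation replicate 1 or 2 or recovery replicate 2 or 3, for drpr without acclimation replicate 2 or 3 or recovery replicate 1 or 3, and for CG5001 without any 1 of the 6 arrays other than acclimation replicate 1. By level, 71 dim genes held 7 higher and 11 lower calls, 71 of middle level 9 and 6, and 71 bright genes 2 and 12. Most calls among bright genes were thus lower in acclimation, and the effect of signal level was not tested.

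**Figure D5:**
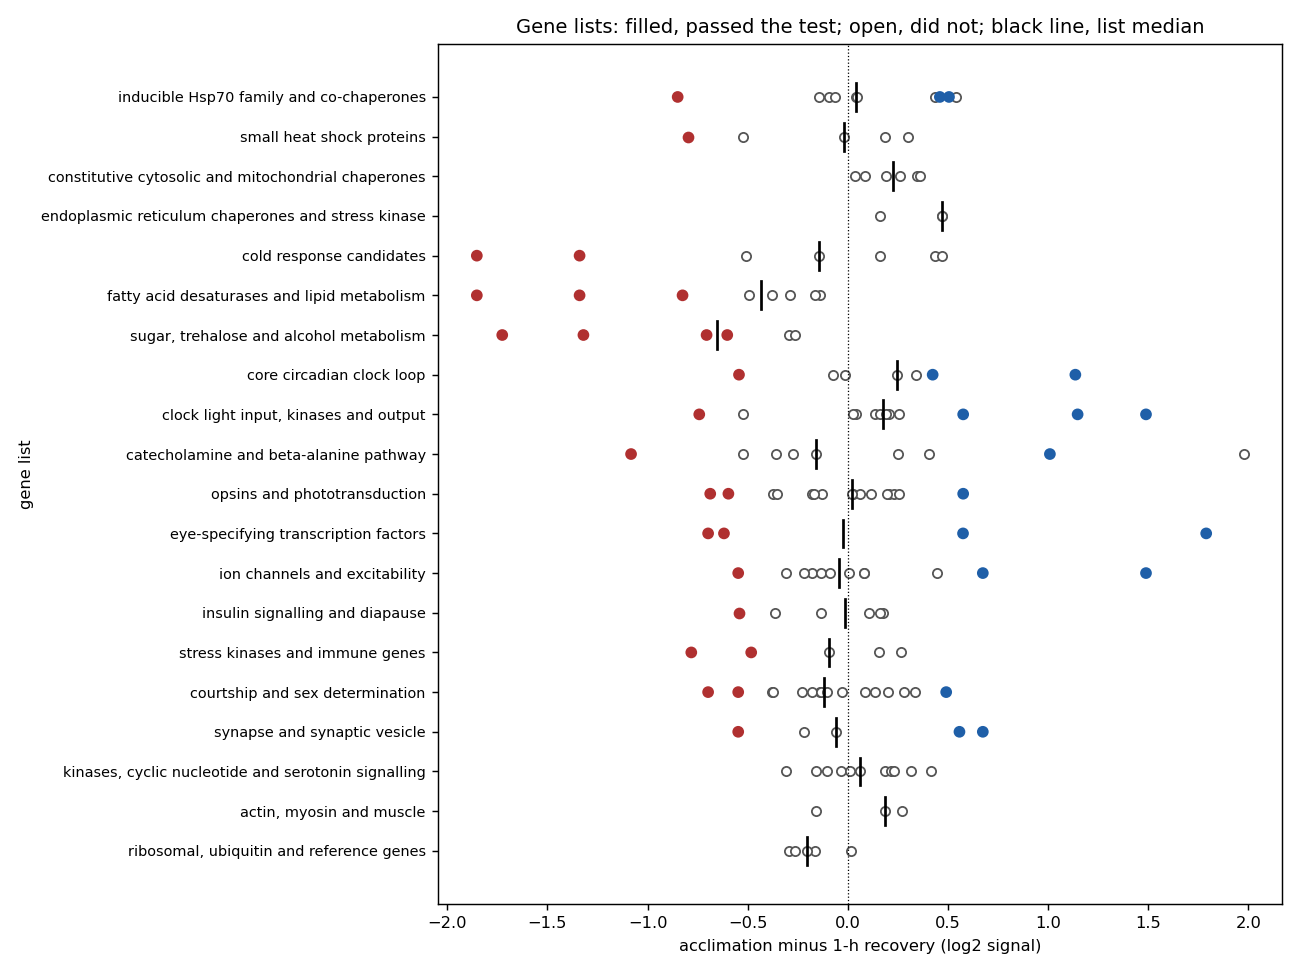
Each circle is 1 gene placed by its log2 difference, acclimation minus 1-h recovery, within each of 20 gene lists; filled circles passed the test (blue higher, red lower), open circles did not, and the black line is the list's median. With 75th percentile scaling the gene means of the lipid and the sugar list lie below 0, with medians of -0.44 and -0.65; Gapdh1 and Gapdh2 lie above 0 with quantile scaling and in the deposited values.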

How the data were processed

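RNA from 1 pool of 10 flies was hybridised to each one-colour (Cy3) array of a custom Agilent design. The authors deposited spot intensity as scanner output, which the file headers credit to Feature Extraction 10.7.1.1 and in which the processed signal is background-subtracted within an array and not normalized between arrays. A further table of theirs holds processed intensity on a linear scale (column medians 69.4 to 72.7), was used as an alternative only, and came with no statement of its normalization in the sources used here. The submitters' processing notes name limma without a role.

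Control spots and spots with an outlier flag were left out. Log2 signals of the 8 spots of each probe were averaged, and the 75th percentile of the array was subtracted. The 1850 probes form 925 pairs, and the brighter probe of each pair over all 24 arrays stood for the fragment. Each gene was summarised by the mean of those probes that every array of 1 D. montana group or more measured well above background, which left 213 of 218 genes. Of the 218 names, 161 are symbols in the assembly ASM3504440v1 of D. montana, used for names only. The 15 arrays in 5 groups were fitted together with limma 3.58.1 (lmFit and eBayes, R 4.3.3), with two-sided p-values, Benjamini-Hochberg adjustment over the 213 genes and a threshold of 0.05. Tested on simulated data for acclimation minus 1-h recovery (213 genes, 40 of them changed, 20 simulations), the procedure recovered 53.0% of differences of 0.5 log2 units and 95.5% of differences of 1 unit. The simulated noise was independent between genes and arrays, with no array-wide shift and no background effect. These rates therefore do not cover the dependence on scaling and background correction. The number of arrays limits the precision.

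The comparison, its gene lists and its fixed genes were chosen with earlier results of these data known. Named genes are the 12 largest differences in each direction among genes past the threshold whose arrays did not overlap, the 2 smallest p-values of each of 20 gene lists, and 17 fixed genes. Other genes are named where a list's count is spelled out, and were chosen after their values were seen. Replicate numbers of the 2 groups equal slide numbers, per the file headers. Same-numbered arrays did not deviate together throughout (correlations of deviations 0.18, 0.09 and -0.12), so the main model has no block. No gMeanSignal column was used, so the normexp alternatives start from the median spot and background intensity as deposited.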

Additional observations from a re-analysis of the deposited data

How the results depend on the processing

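The count of 47 genes (18 higher and 29 lower in acclimation) stayed within 1.5 times without the filter on dim probes, with a stricter filter, with outlier-flagged spots kept, with the median over probes and in a model of 9 arrays (39 to 48 genes). It was 25 with spike-in scaling (6 lower), 25 from the 6 arrays alone (8 higher, 17 lower) and 74 with array weights (30 and 44), whose estimation stopped before full convergence. Higher and lower genes numbered 33 and 12 with median scaling, 31 and 17 with quantile normalization, 32 and 18 in the deposited values and 11 and 44 with both orientations averaged. Normexp on all spots gave 1 call (0 higher, 1 lower, 50 at an unadjusted p under 0.05, limma), because a few spots with flagged backgrounds distorted the fit on 2 arrays. Without these spots, an alternative chosen after seeing the data, 46 genes passed. With slide as a replicate block 56 genes passed, 54 with the label number as block and 51 with slide as a random block, each holding all 47, and the block ended no call. Leaving out single arrays gave 32 to 52 genes, 11 to 22 higher and 21 to 30 lower, with the fewest genes without acclimation replicate 2. Of the 47, 23 passed in all 15 such models.

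Some directions turned, mostly of genes that had not passed, but also of na (1.49), knk (1.01) and norpA (0.58), which had. With spike-in scaling Act42A was at 0.0578, Hsp68 at 0.120 and stv at 0.0714. With median scaling they were at 0.0470, 0.110 and 0.0606. Quantile normalization gave Act42A 0.00820, Gapdh1 0.0646, Gapdh2 0.0701, Hsp68 0.00872 and Thor 0.00148, and the deposited values gave Gapdh1 0.0507, Gapdh2 0.0531 and Hsp68 0.0265. With normexp, flagged backgrounds left out, 5-HT7 was at -0.237, knk at -0.0496 and na at -0.160. With both orientations averaged Hsp83 was at -0.301, which passed as lower (adjusted p = 0.0397), and norpA at -0.00678. Hsp83 was at -0.00637 with the median over probes and at -0.0157 with array weights, where Hsp68 was at 0.0426. Over models without 1 array, Hsp68 ran from -0.189 (without recovery replicate 2) to 0.0869 (without recovery replicate 1), and Hsp83 from -0.162 (without recovery replicate 3) to 0.166 (without recovery replicate 1). The cause was not tested.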
